A study of Rattus norvegicus with 4 samples.

Results

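The HPC0h library was set against the tGCI26h library among 4 libraries of small RNA recovered by RNA immunoprecipitation from the CA1 region of the rat hippocampus. A sequence was measured where the deposited raw tag table held at least 10 tags in either of the 2 libraries, with a blank cell taken as 0. This rule kept 2036 of the 3129 listed sequences. The series concerns small RNA bound to Piwil2 after transient global cerebral ischemia (tGCI), and it holds an HPC0h library (time 0 h), a tGCI26h library (time 26 h), a Sham library and an IgG control library. The labels explain neither HPC nor the event from which the hours run, so treatment and time cannot be told apart. All 4 libraries are labelled Wistar, CA1 and 7 to 8 weeks of age, and the design text describes adult males. According to the design text each group had 3 replicates, but a group is 1 library in these files, and pooling of animals is not mentioned. Each difference is therefore between 2 libraries, without a test, and its exact 95% interval covers no more than counting error. The columns used for HPC0h, tGCI26h and Sham carry shorter names that share only a time or an initial with the titles, so the direction of every ratio rests on that reading of the names.

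PIWI proteins, of which Piwil2 is a member, bind small RNAs called piRNAs and are known best from the germ line, where the pair silences transposons. An immunoprecipitate also carries pieces of abundant cellular RNAs such as ribosomal RNA (rRNA), the RNA of the ribosome, and transfer RNA (tRNA), which brings amino acids to it. An IgG library, made with an antibody of no chosen target, shows what is recovered without the specific antibody. Insert length is a further mark, since the libraries were selected for inserts near the length of piRNAs.

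The raw columns summed to 830634 tags in HPC0h, 222511 in tGCI26h, 159215 in Sham and 668857 in IgG, with 2849, 2102, 1749 and 2646 sequences listed in that order. HPC0h was thus 3.73 times deeper than tGCI26h. Counts were divided by these column sums and scaled to 1000000 tags (CPM), and every ratio below is HPC0h CPM over tGCI26h CPM. A sequence was called higher or lower at a 2-fold difference with an interval that excluded 1. Sequences that share 20 bases were joined into families, and 119 of the 184 families with a measured sequence were given 1 of 26 RNA names. The names come from general knowledge of these RNAs, were not checked against a reference, and are provisional.

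Shown first are the sequences on which the 28S results turn, since they differ in where they start. Fragments of the 5′ end of 28S rRNA, the large rRNA of the large ribosomal subunit, led both libraries. The capitals mark the first 7 bases of novel_3110_x591, so the shift of the start can be read off.
novel_88_x12235: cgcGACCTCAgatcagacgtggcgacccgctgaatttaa
novel_12973_x153: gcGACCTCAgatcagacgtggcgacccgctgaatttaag
novel_3847_x482: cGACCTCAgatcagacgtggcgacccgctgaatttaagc
novel_3110_x591: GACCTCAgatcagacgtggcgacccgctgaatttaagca
In an inner stretch of 28S rRNA the capitals mark the first 7 bases of novel_4400_x424.
novel_2114_x852: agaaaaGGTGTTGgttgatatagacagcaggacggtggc
novel_1825_x970: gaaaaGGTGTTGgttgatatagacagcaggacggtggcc
novel_4400_x424: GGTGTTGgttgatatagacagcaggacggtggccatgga
In another inner stretch they mark the first 7 bases of novel_716_x2139.
novel_9520_x202: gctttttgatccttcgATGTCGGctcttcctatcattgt
novel_231_x5358: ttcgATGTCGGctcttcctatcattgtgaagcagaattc
novel_716_x2139: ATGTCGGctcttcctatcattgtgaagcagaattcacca

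A further set shows the leading fragments of the other RNAs described below, so that each ratio can be tied to its sequence. No letters are marked in this set.
novel_12320_x160 (18S rRNA): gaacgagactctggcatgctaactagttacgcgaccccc
novel_14373_x140 (18S rRNA): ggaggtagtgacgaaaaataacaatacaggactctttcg
novel_11003_x177 (5S rRNA): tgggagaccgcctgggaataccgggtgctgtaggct
novel_2845_x640 (tRNA-Glu): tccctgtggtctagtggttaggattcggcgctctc
rno_piR_005567 (tRNA-Gly): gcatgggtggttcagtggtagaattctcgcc
rno_piR_005598 (tRNA-Lys): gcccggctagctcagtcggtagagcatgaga
rno_piR_005901 (tRNA-Val): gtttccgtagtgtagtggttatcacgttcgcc
novel_7169_x265 (tRNA-Asp): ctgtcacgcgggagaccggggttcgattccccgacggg
novel_3814_x485 (mitochondrial tRNA-Gln): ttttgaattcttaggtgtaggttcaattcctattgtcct
novel_14710_x137 (Y1 RNA): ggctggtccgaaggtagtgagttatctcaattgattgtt
novel_994_x1625 (mitochondrial 16S rRNA): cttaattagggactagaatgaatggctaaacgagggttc

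Of the 2036 measured sequences, 428 (21.0%) were called higher and 428 (21.0%) lower in HPC0h. Every count of calls in a family, RNA name or length below is to be read beside these shares. CPM compare the make-up of the libraries and not the amount of RNA recovered, and in tissue a smaller number of cells of a type cannot be told apart from less RNA per cell. The calls fell in 66 and 111 families, and 35 families held calls of both kinds. Both libraries listed 1802 of the sequences, over which the counts had a Spearman correlation of 0.716 as a description of libraries that share overlapping sequences. The 10 most abundant sequences of each library had 8 in common and held 48.5% of tags in HPC0h and 43.5% in tGCI26h.

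The counts of calls differed with how a sequence passed the minimum in these libraries of unequal depth. Among 1190 sequences with at least 10 tags in both libraries, 133 were higher, 374 were lower and the median log2 ratio was -0.48. Among 797 that reached 10 tags in HPC0h only, 295 were higher and 5 lower. The other 49 reached 10 tags in tGCI26h only, and all were lower. These last groups passed the minimum through the library where they were high, so their calls follow in part from the minimum.

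Of the 428 called higher, 138 were not listed in tGCI26h. A blank there does not mean that no tag was seen: 128 of the 138 held a value in the authors' deposited normalized table, with a median of 8 and a highest value of 57 over the 138. There 121 of the 138 were at least 2-fold higher in HPC0h and 17 were not. For a sequence missing from a library the fold below is a bound against 3 tags in that library.

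**Figure D1:**
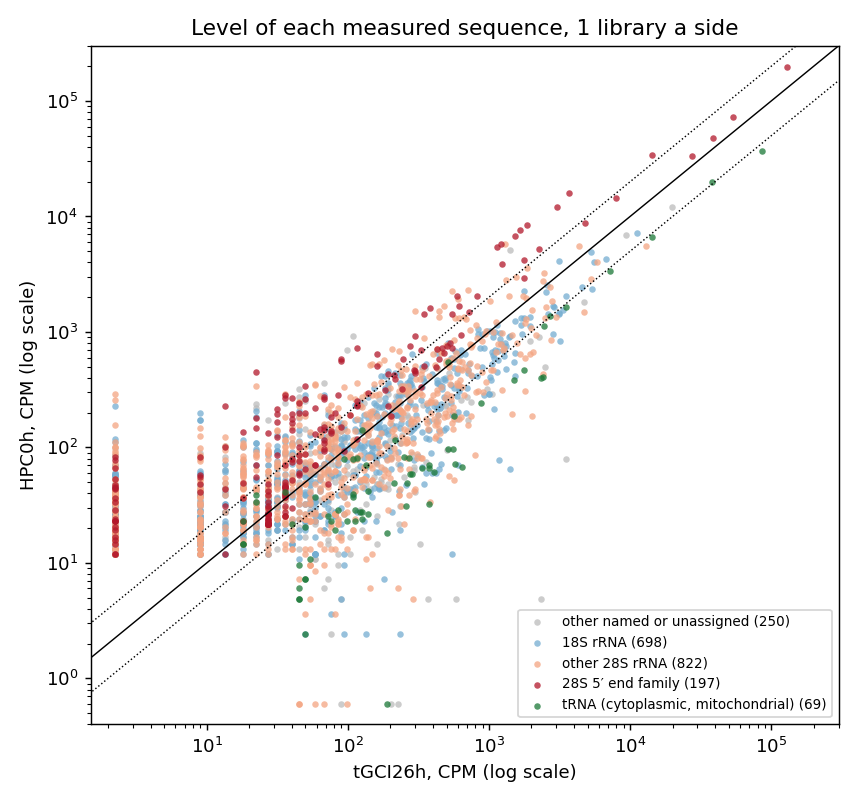
Level of each of the 2036 measured sequences in HPC0h (vertical) against tGCI26h (horizontal), in CPM on log scales; the solid line marks equal levels, the dotted lines mark 2-fold, and sequences not listed in a library are drawn at 0.5 tags. The 28S 5′ end family lies on or above the solid line at high levels, and the tRNA fragments lie mostly below it.

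The listed counts were not independent of each other. Across 11568 pairs in which one listed sequence lies inside another, the longer sequence never had fewer tags than a listed shorter one, in any of the 4 libraries. In HPC0h all 426 sets of 4 listed sequences that differ by 1 base at either end left at least 0 tags once the shorter counts were taken from the longer. The same held for 193 sets in tGCI26h. Counts of nested sequences therefore look cumulative, which the sources used here do not state. If so, a sum over nested sequences holds the same tag more than once, and its interval is too narrow even for counting error. Exact-end tags were the count of a sequence less those of the sequence cut by 1 base at either end, plus that cut at both. They came to 480438 in HPC0h and 152422 in tGCI26h, a depth ratio of 3.15. A cut sequence that was not listed was given the count of the sequences it contains. Results below 0 were set to 0, which happened for 43 values in HPC0h and 18 in tGCI26h. On exact-end tags 404 of 1641 sequences (24.6%) were higher and 370 (22.5%) lower.

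Fragments of 28S rRNA were higher in HPC0h as a sum, and this came from the 5′ end. They held 72.0% of tags in HPC0h and 53.3% in tGCI26h, beside 51.2% in Sham and 59.9% in IgG. The ratio was 1.35 (1.34 to 1.36), with 278 of 1019 measured sequences called higher and 169 lower. Outside the 5′ end family the 28S sum had a ratio of 0.875 (0.866 to 0.884), which became 1.27 when the libraries were scaled to totals without that family. In that remainder 187 of 822 sequences were called higher and 169 lower, against the 21.0% called in each direction over all sequences.

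**Figure D2:**
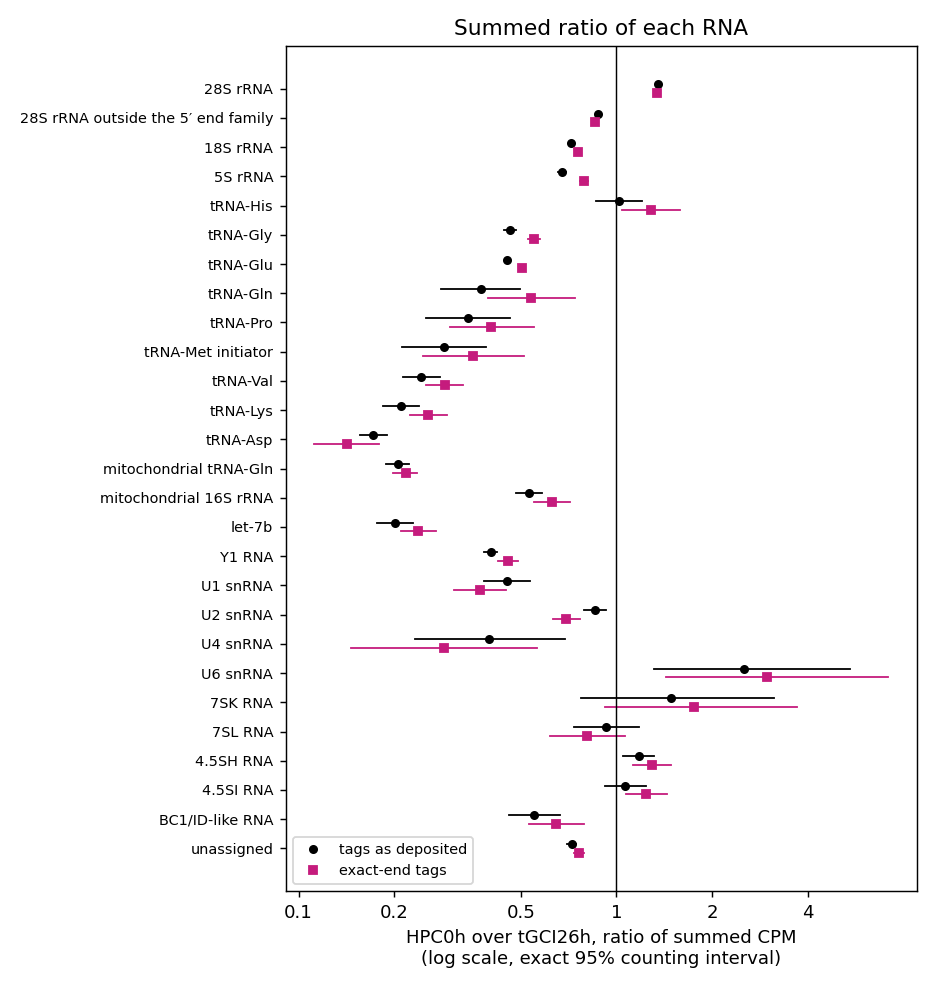
Summed HPC0h over tGCI26h ratio of each RNA (log scale, exact 95% counting interval), from tags as deposited (black circles) and from exact-end tags (magenta squares). The 28S sum lies at 1.35, the 18S sum at 0.720, and the tRNA-Glu sum at 0.453.

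The 5′ end family held 52.9% of tags in HPC0h, 31.5% in tGCI26h, 33.2% in Sham and 41.4% in IgG. HPC0h was the highest of the 4 libraries, and tGCI26h was the lowest, close to Sham. Its ratio was 1.68 (1.67 to 1.69), and 1.79 on exact-end tags. Of its 197 measured sequences 91 were called higher and 0 lower, against 21.0% in each direction over all sequences. The leading sequence, novel_88_x12235, held 19.8% of tags in HPC0h, 12.9% in tGCI26h, 13.1% in Sham and 16.04% in IgG. Its ratio of 1.54 (1.52 to 1.56) lay under the 2-fold threshold.

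The size of the difference at the 5′ end varied with the start of the fragment. The 16 sequences that start at the first base of novel_88_x12235 had a summed ratio of 1.46, and 3 of them were called higher. The 56 listed sequences that start further in had a ratio of 2.38 (2.34 to 2.42), and 38 of the 44 measured among them were called higher. Nested counting bears on that contrast: on exact-end tags the ratios were 1.73 (1.71 to 1.75) and 1.86 (1.82 to 1.897).

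By single start positions the exact-end ratio was 1.73 at the first base, 2.47 (2.38 to 2.57) for a start 1 base further in and 4.15 (3.71 to 4.65) for a start 2 bases further in. It was 1.40 (1.36 to 1.44) for a start 3 bases in, the start of novel_3110_x591, 1.897 for 4 bases in and 2.93 (2.52 to 3.43) for 8 bases in. The neighbouring starts thus differed by more than their counting intervals. A start 10 bases in had 0.702 (0.493 to 1.01), with 104 and 47 exact-end tags in HPC0h and tGCI26h.

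The listed sequences printed above show the same order in their own counts. With 2 bases fewer at the 5′ side, novel_3847_x482 had 9940 tags in HPC0h and 670 in tGCI26h. With 1 base fewer, novel_12973_x153 had 34323 CPM in HPC0h, 14282 in tGCI26h, 18641 in Sham and 17983 in IgG, a ratio of 2.40 (2.32 to 2.49). With 3 fewer, novel_3110_x591 had 33532 CPM in HPC0h, 27635 in tGCI26h, 17907 in Sham and 18780 in IgG, a ratio of 1.21 (1.18 to 1.25). For both of the last sequences HPC0h was the highest library, but tGCI26h was the lowest for novel_12973_x153 and the second highest for novel_3110_x591.

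The ratio also varied with the 3′ end. Among sequences starting at the first base, the exact-end ratio was 3.26 (1.75 to 6.71) at 33 nt, from 113 and 11 tags, and 3.18 (2.57 to 3.97) at 34 nt. It was 2.62 (2.35 to 2.93) at 35 nt, 1.91 (1.80 to 2.03) at 36 nt, 1.26 (1.23 to 1.30) at 37 nt, 1.77 (1.71 to 1.84) at 38 nt and 1.87 (1.84 to 1.899) at 39 nt. The 39 nt form made up 62.5% of the exact-end tags with that start in HPC0h and 57.8% in tGCI26h. The 37 nt form made up 17.6% and 24.1% in the same libraries.

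Most of the family's listed sequences differ from novel_88_x12235 or its shifted forms by 1 base. The 167 listed sequences of this kind held 3.48% of exact-end tags in HPC0h, 1.54% in tGCI26h, 2.07% in Sham and 2.83% in IgG, a ratio of 2.25 (2.16 to 2.35), and 50 of the 137 measured among them were called higher. An example with a large ratio is novel_8368_x230, which had 453 CPM in HPC0h, 22.5 in tGCI26h, 25.1 in Sham and 145 in IgG. Its ratio was 20.1 (8.56 to 62.4), from 376 and 5 tags. It is shown with the base that differs from novel_3110_x591 in capitals.
novel_8368_x230: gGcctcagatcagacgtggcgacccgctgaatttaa

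**Figure D3:**
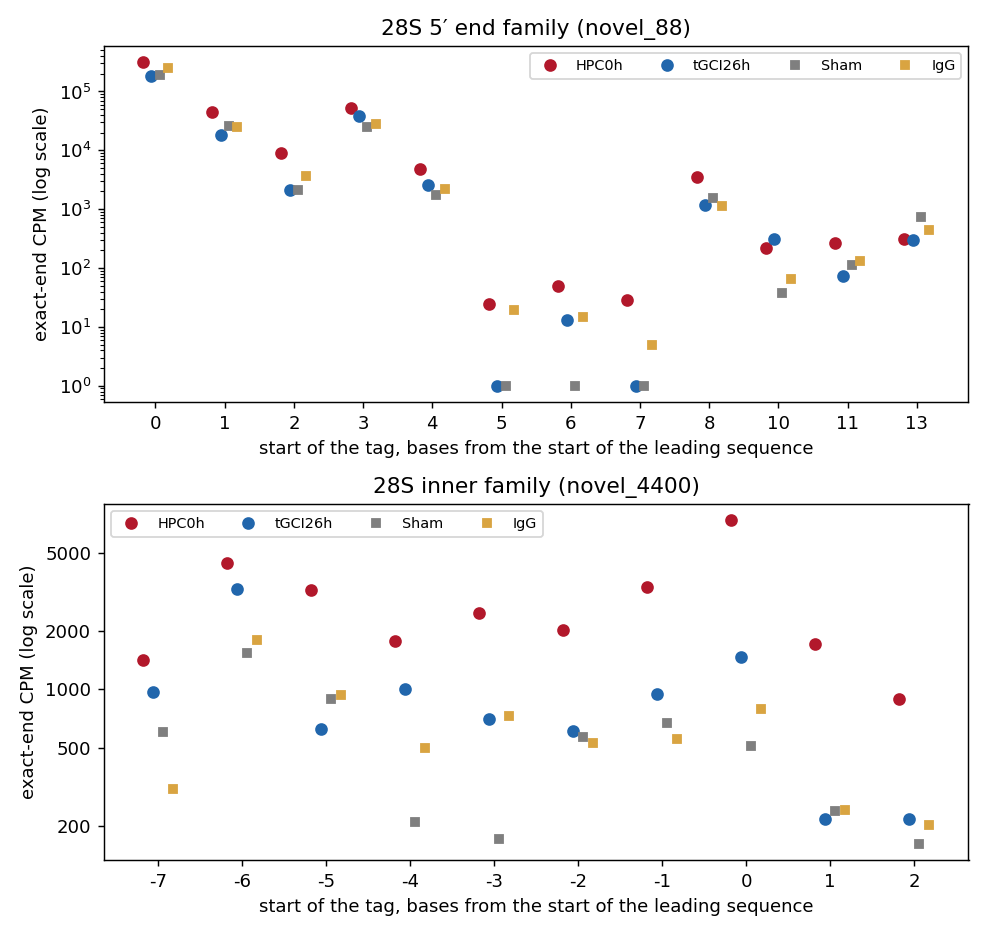
Exact-end CPM (log scale) by the start of the tag in the 28S 5′ end family (top) and in the inner family led by novel_4400_x424 (bottom), with 1 point per library; values of 0 are drawn at 1 CPM. HPC0h lies above tGCI26h at the starts 0 to 8 of the upper panel, with ratios between 1.40 and 4.15 at the starts the text names, and at all starts the lower panel shows, which run from -7 to 2.

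Among inner 28S stretches the libraries differed in both directions. Of 24 families of 28S with at least 10 measured sequences, the 5′ end family among them, 7 had a ratio with an interval above 1. In 16 the interval lay below 1, and the ratios ranged from 0.385 to 3.10 with a median of 0.728. With totals that leave out the 5′ end family the counts were 12 above and 11 below, so the balance of directions depends on that family. The order of the families cannot change, since these totals scale every ratio alike.

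The family with the highest ratio, led by novel_8342_x230, had 960 tags in HPC0h and 83 in tGCI26h, a ratio of 3.10 (2.47 to 3.93). In this family 8 of 13 measured sequences were called higher, against 21.0% over all sequences. Its leading sequence had 519 CPM in HPC0h, 225 in tGCI26h, 107 in Sham and 374 in IgG. IgG thus lay between HPC0h and tGCI26h. In the authors' deposited normalized table the family's ratio was 1.95.

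A larger inner family, led by novel_4400_x424, had a ratio of 2.16 (2.08 to 2.24). Of its 75 measured sequences 41 were called higher and 5 lower, against 21.0% in each direction over all sequences. The leading sequence had 5762 CPM in HPC0h, 1303 in tGCI26h, 603 in Sham and 758 in IgG, a ratio of 4.42 (3.93 to 4.99). Here HPC0h stood above the other 3 libraries, of which tGCI26h was the highest. Starts differed again: novel_1825_x970 had 2242 CPM in HPC0h and 544 in tGCI26h, a ratio of 4.12, while novel_2114_x852, which starts 1 base before it, had 3253 CPM in HPC0h and 2458 in tGCI26h, a ratio of 1.32. On exact-end tags the ratio was 1.37 (1.24 to 1.51) for the start of novel_2114_x852, 5.21 (4.23 to 6.48) for that of novel_1825_x970 and 5.00 (4.36 to 5.74) for that of novel_4400_x424. A start 9 bases further in than novel_4400_x424 went the other way at 0.292 (0.225 to 0.379).

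The family led by novel_716_x2139 summed to a ratio near 1, at 1.07 (1.05 to 1.10), which was 0.963 on exact-end tags and 1.56 with totals that leave out the 28S 5′ end family. Of its 107 sequences 38 were called higher and 16 lower, against 21.0% in each direction over all sequences. The fragments named next differed in direction. Upstream, novel_9520_x202 had 1492 CPM in HPC0h, 4692 in tGCI26h, 1702 in Sham and 2012 in IgG, a ratio of 0.318, so tGCI26h stood above the other 3. In the middle, novel_231_x5358 had 3597 CPM in HPC0h, 1874 in tGCI26h, 4126 in Sham and 1854 in IgG, a ratio of 1.92, and there tGCI26h and IgG were the low libraries. The leading sequence had 5530 CPM in HPC0h, 4373 in tGCI26h, 4045 in Sham and 2923 in IgG, a ratio of 1.26 (1.18 to 1.36).

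At the lower end, the family of novel_5113_x364 had a ratio of 0.385 (0.364 to 0.406). In this family 11 of 24 sequences were called lower and 1 higher, against 21.0% in each direction over all sequences. Its leading sequence had 665 CPM in HPC0h, 2040 in tGCI26h, 2475 in Sham and 991 in IgG. The low library was thus HPC0h, while tGCI26h was close to Sham. The most abundant of the lower 28S fragments, novel_15140_x134, had 5503 CPM in HPC0h, 13042 in tGCI26h, 6463 in Sham and 9712 in IgG, a ratio of 0.422 (0.403 to 0.442). A member of the family of novel_716_x2139 described above, novel_16360_x125, had a ratio of 0.0931. Its levels were 187 CPM in HPC0h, 2004 in tGCI26h, 214 in Sham and 354 in IgG, so tGCI26h alone was high.

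**Figure D4:**
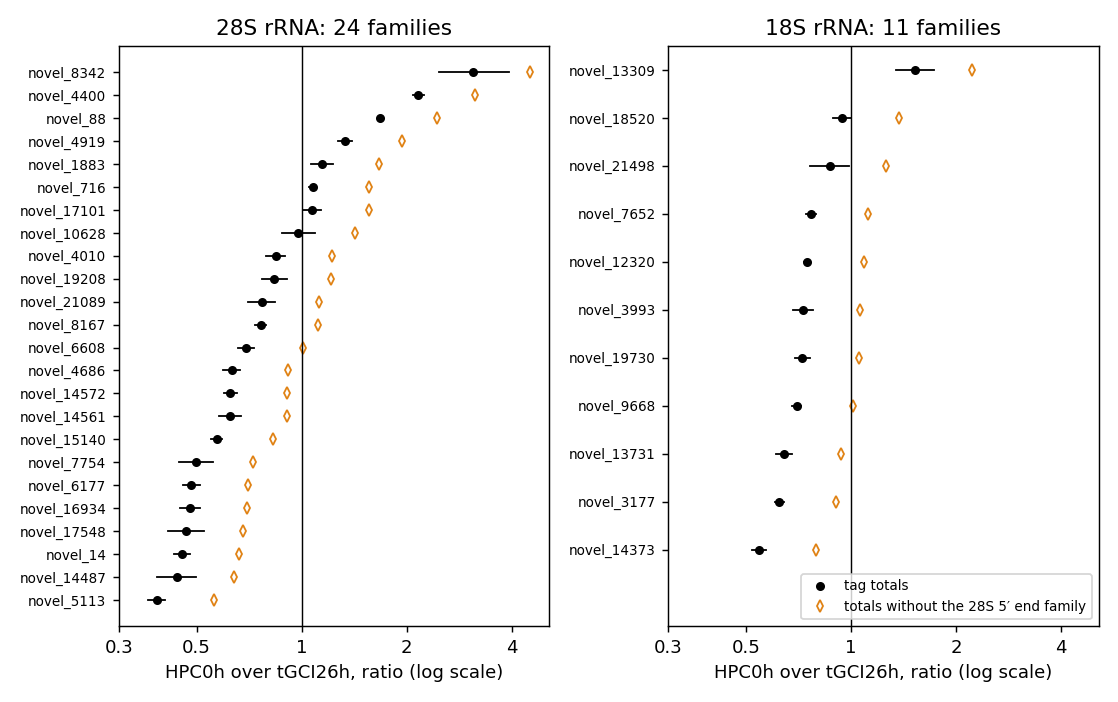
Summed ratio of each 28S and 18S rRNA family with at least 10 measured sequences (log scale), from tag totals with exact 95% counting intervals (black) and from totals without the 28S 5′ end family (orange diamonds). From tag totals 16 of 24 families of 28S and 10 of 11 families of 18S have an interval below 1; without the largest family 11 and 3 do.

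Fragments of 18S rRNA, the rRNA of the small subunit, were lower as a sum with a ratio of 0.720 (0.712 to 0.727), which turned to 1.05 with totals that leave out the 28S 5′ end family. They held 15.3% of tags in HPC0h, 21.3% in tGCI26h, 15.9% in Sham and 20.03% in IgG. Of 698 measured sequences 107 (15.3%) were called higher and 129 (18.5%) lower, both under the 21.0% over all sequences. Among the 11 families with at least 10 measured sequences, 10 had an interval below 1 and 1, led by novel_13309_x150, lay above at 1.52 (1.34 to 1.73).

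The largest 18S family, led by novel_12320_x160, held 199 measured sequences. Of these 48 were called higher and 23 lower, against 21.0% in each direction over all sequences. The family sum had a ratio of 0.749 (0.736 to 0.762), which turned to 1.09 with totals that leave out the 28S 5′ end family. The leading sequence had 7210 CPM in HPC0h, 11150 in tGCI26h, 8963 in Sham and 11333 in IgG, with HPC0h lowest. At the low end stood the family of novel_14373_x140, with a ratio of 0.547 (0.522 to 0.573) and 9 of 32 sequences called lower. That leading sequence had 829 CPM in HPC0h, 3177 in tGCI26h, 1087 in Sham and 767 in IgG, a ratio of 0.261 (0.235 to 0.290), so tGCI26h was the library that stood apart.

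Single 18S fragments went further. For novel_16529_x123 the levels were 12.04 CPM in HPC0h, 544 in tGCI26h, 572 in Sham and 100.2 in IgG, a ratio of 0.0221 (0.0104 to 0.0421). The low library was HPC0h, below Sham and IgG as well. The opposite case, novel_2083_x865, had 228 CPM in HPC0h and was not listed in tGCI26h, so it was at least 16.9-fold higher, with 25.1 CPM in Sham and 176 in IgG. In the authors' deposited normalized table it had 215 in HPC0h and 4 in tGCI26h. A further fragment grouped with 18S, novel_6066_x308, had 165 and 2 tags in HPC0h and tGCI26h, a ratio of 22.1 (6.02 to 184), the largest among sequences listed in both. Its levels were 199 CPM in HPC0h, 8.99 in tGCI26h, 659 in Sham and 206 in IgG. The low library was tGCI26h, while HPC0h was close to IgG and below Sham.

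Of 28S fragments missing from tGCI26h, novel_800_x1940 had 288 CPM in HPC0h, 113 in Sham and 32.9 in IgG, which is at least 21.3-fold higher than tGCI26h. Its values in the authors' deposited normalized table were 283 in HPC0h and 12 in tGCI26h. Likewise novel_928_x1719 had 258 CPM in HPC0h, 132 in Sham and 100.2 in IgG, at least 19.1-fold higher, and 254 and 11 in the normalized table. In both, HPC0h stood above Sham and IgG.

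5S rRNA, the small rRNA of the large subunit, was lower as a sum, with a ratio of 0.673 (0.655 to 0.693). Of its 22 measured sequences 4 (18.2%) were called lower and 0 higher, against 21.0% in each direction over all sequences. Their median log2 ratio was 0.032. With totals that leave out the 28S 5′ end family the 5S ratio was 0.9798. Its leading fragment novel_11003_x177 had 12199 CPM in HPC0h, 19779 in tGCI26h, 20161 in Sham and 10802 in IgG, a ratio of 0.617 (0.595 to 0.639). The values of tGCI26h and Sham lay together, and so did those of HPC0h and IgG.

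Fragments of cytoplasmic tRNA were lower in HPC0h. They held 7.43% of tags in HPC0h, 16.8% in tGCI26h, 18.6% in Sham and 11.0% in IgG, and the ratio was 0.442 (0.436 to 0.448), or 0.4997 on exact-end tags. Of 60 measured sequences 45 were called lower and 0 higher, against 21.0% in each direction over all sequences. The interval lay below 1 in 12 of the 13 families, the exception being tRNA-His at 1.02 (0.865 to 1.20), which was 1.28 (1.04 to 1.59) on exact-end tags, 1.48 with totals that leave out the 28S 5′ end family, 0.918 without its most abundant sequence and 0.851 in the authors' deposited normalized table. The tRNA sum stayed below 1, at 0.643, with totals that leave out the 28S 5′ end family.

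tRNA-Glu, which carries glutamate, made up most of this sum. Its fragments held 6.45% of tags in HPC0h, 14.2% in tGCI26h, 13.5% in Sham and 10.004% in IgG, with 11 of 18 sequences called lower and 0 higher. The leading 35 nt fragment novel_2845_x640 had 36605 CPM in HPC0h, 86665 in tGCI26h, 79119 in Sham and 60257 in IgG, a ratio of 0.422 (0.415 to 0.430). The 34 nt form novel_128_x8598, which lies inside it, had 19770 CPM in HPC0h, 38106 in tGCI26h, 38370 in Sham and 28040 in IgG, a ratio of 0.519 (0.505 to 0.533). For both, HPC0h was the lowest library and IgG the next lowest.

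tRNA-Gly fragments, from the tRNA for glycine, had a ratio of 0.462 (0.443 to 0.483), and all 4 measured sequences were called lower. The leading rno_piR_005567 had 6701 CPM in HPC0h, 14386 in tGCI26h, 36981 in Sham and 7184 in IgG, so Sham was far above the other libraries and HPC0h was close to IgG. The tRNA-Lys sum was 0.211 (0.185 to 0.240), with all 5 sequences lower. Its leading rno_piR_005598 had 384 CPM in HPC0h, 1497 in tGCI26h, 264 in Sham and 175 in IgG, and here tGCI26h alone was high. The tRNA-Val sum was 0.244 (0.213 to 0.279), with all 3 lower, and its leading rno_piR_005901 had 465 CPM in HPC0h, 1766 in tGCI26h, 2789 in Sham and 330 in IgG. Without their most abundant sequence the sums were lower still, at 0.263 for tRNA-Gly, 0.133 for tRNA-Lys, 0.134 for tRNA-Val and 0.169 for tRNA-Gln.

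tRNA-Asp, the tRNA for aspartate, had the lowest ratio among sums by tRNA name with every sequence kept, at 0.172 (0.156 to 0.189), with 679 and 1059 tags in HPC0h and tGCI26h and 15 of 17 sequences called lower. The leading novel_7169_x265 had 67.4 CPM in HPC0h, 647 in tGCI26h, 31.4 in Sham and 23.9 in IgG, a ratio of 0.104 (0.0751 to 0.143). The remaining sums were 0.374 for tRNA-Gln, 0.342 for tRNA-Pro and 0.287 for the initiator tRNA-Met, each with under 130 tags in HPC0h, and 7 of their 8 measured sequences were called lower.

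Mitochondrial RNA fragments were mostly lower as well. Mitochondrial tRNA-Gln had a ratio of 0.205 (0.189 to 0.222) and 6 of 8 sequences called lower. Its leading novel_3814_x485 had 406 CPM in HPC0h, 2409 in tGCI26h, 622 in Sham and 580 in IgG. The only mitochondrial tRNA-Leu fragment, novel_20487_x104, had 42 tags in tGCI26h and was listed in none of the other libraries, so it was at least 52.3-fold lower in HPC0h. Its values in the authors' deposited normalized table were 1 in HPC0h and 166 in tGCI26h.

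Mitochondrial 16S rRNA, from the large subunit of the mitochondrial ribosome, had a ratio of 0.531 (0.485 to 0.582), but its 2 families went in opposite directions. The family of novel_994_x1625 had 0.334 (0.299 to 0.372), with 5 of 10 sequences lower, and the leading sequence had 290.1 CPM in HPC0h, 1047 in tGCI26h, 452 in Sham and 999 in IgG. The family of novel_12146_x162 had 1.60 (1.31 to 1.98), with 2 of 5 sequences higher, from 657 tags in HPC0h and 110 in tGCI26h.

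Y1 RNA, a partner of the Ro60 protein, had a ratio of 0.402 (0.384 to 0.422), and 15 of 18 sequences were called lower and 1 higher. In the family of novel_14710_x137 all 12 measured sequences were called lower. That leading fragment had 1808 CPM in HPC0h, 4714 in tGCI26h, 5515 in Sham and 2180 in IgG, so HPC0h lay near IgG and tGCI26h near Sham.

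The sums of spliceosomal RNAs, which take part in removing introns from transcripts, were lower for U1, U2 and U4 and higher for U6. The U1 sum was 0.452 (0.383 to 0.535), with 5 of 10 sequences lower, and U1 held 0.0464% of tags in HPC0h, 0.102% in tGCI26h, 0.716% in Sham and 0.939% in IgG. U2 had a ratio of 0.855 (0.789 to 0.928), which became 1.24 with totals that leave out the 28S 5′ end family. Of its 27 measured sequences 6 (22.2%) were higher and 5 (18.5%) lower, near the 21.0% in each direction over all sequences. Its novel_11728_x168 had 323 CPM in HPC0h, 975 in tGCI26h, 1313 in Sham and 498 in IgG, whereas novel_5060_x368 had 319 CPM in HPC0h, 44.9 in tGCI26h, 32227 in Sham and 833 in IgG. The Sham library thus held most U2 tags of that second form. U4 had 0.396 (0.232 to 0.687), from only 37 and 25 tags in HPC0h and tGCI26h, with 1 of 3 sequences called lower. Without its most abundant sequence the U4 sum was 1.17. U6 had 2.52 (1.31 to 5.42), from only 94 and 10 tags in HPC0h and tGCI26h, and was 1.26 in the authors' deposited normalized table.

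Of the remaining noncoding RNAs, the rodent 4.5SH RNA had a ratio of 1.17 (1.05 to 1.31). It had 3 of 17 sequences (17.6%) called higher and 0 lower, against 21.0% in each direction over all sequences. The rodent 4.5SI RNA had 1.07 (0.922 to 1.24), which was 1.24 (1.07 to 1.44) on exact-end tags, 1.60 without its most abundant sequence and 0.904 in the authors' deposited normalized table. 7SL RNA, the RNA of the signal recognition particle, had 0.926 (0.736 to 1.18), which became 1.35 with totals that leave out the 28S 5′ end family and 1.84 without its most abundant sequence, and 2 of its 4 measured sequences were called higher. 7SK RNA, a regulator of transcription elongation, had 1.49 (0.775 to 3.13) from 61 and 11 tags. The intervals of the 4.5SI, 7SL and 7SK sums included 1 on tags as deposited. BC1/ID-like RNA, which includes a rodent neuronal RNA, had 0.551 (0.459 to 0.663) with 0 of 4 sequences called.

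let-7b, a microRNA found in most tissues, is shown because it is the only microRNA named here and lies below the length of piRNAs. Its mature sequence, credited to RefSeq (GRCr8, chr7:118684044-118684065, plus strand), is printed with the seed, bases 2 to 8, in capitals, and the listed novel_4906_x381 holds its first 21 bases.
rno-let-7b-5p: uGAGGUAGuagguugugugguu
It had 414 tags in HPC0h, 551 in tGCI26h, 195 in Sham and 19772 in IgG, which is 0.0498%, 0.248%, 0.122% and 2.96% of tags. The HPC0h over tGCI26h ratio was 0.201 (0.177 to 0.229). All 3 other libraries lay far below IgG.

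Sequences with catalogued rat piRNA names (rno_piR) were few and mostly lower in HPC0h. Of 126 listed, 24 were measured, of which 19 were called lower, 1 higher and 4 neither, against 21.0% in each direction over all sequences. All 126 together had a ratio of 0.403 (0.388 to 0.418), with 0.860% of tags in HPC0h, 2.13% in tGCI26h, 4.23% in Sham and 0.915% in IgG. Most of these tags were the tRNA-Gly fragment rno_piR_005567. It held 5566 of 7140 in HPC0h, 3201 of 4748 in tGCI26h, 5888 of 6732 in Sham and 4805 of 6123 in IgG. Without it the ratio was 0.273. By sequence, 13 of the 24 were fragments of tRNA and all 13 were lower; 2 were fragments of rRNA and both were lower; of the 9 others 4 were lower and 1 higher.

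The 1 higher rno_piR sequence, rno_piR_013720, had 16 tags in HPC0h and was listed in none of the other libraries, so it was at least 1.43-fold higher. Among those that no other RNA name covers, rno_piR_023471 had 43.3 CPM in HPC0h, 193 in tGCI26h, 232 in Sham and 56.8 in IgG, a ratio of 0.224 (0.140 to 0.358). By contrast rno_piR_005791 had 139.7 CPM in HPC0h, 121 in tGCI26h, 119 in Sham and 94.2 in IgG, a ratio of 1.15 (0.752 to 1.82), a difference not detectable at this depth.

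Sequences in families with no RNA name, whose organism was not checked here, had a summed ratio of 0.724 (0.700 to 0.749), which became 1.05 with totals that leave out the 28S 5′ end family. Of 119 measured, 27 (22.7%) were called higher and 41 (34.5%) lower, against 21.0% in each direction over all sequences. The family led by novel_12673_x157 stood out on the higher side: 6896 tags in HPC0h and 416 in tGCI26h, a ratio of 4.44 (4.02 to 4.91), with 12 of 15 sequences called higher and 0 lower. Its leading sequence had 5121 CPM in HPC0h, 1416 in tGCI26h, 207 in Sham and 528 in IgG, so HPC0h was highest and tGCI26h next. Outside this family the unnamed sum was 0.370 (0.356 to 0.385).

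A member of that family holds a catalogued rat piRNA whole, which is why both are shown. The capitals mark the 27 bases they share.
rno_piR_000699: CGTTGGATCGATGTGGTGCTGCCGCGT
novel_13081_x152: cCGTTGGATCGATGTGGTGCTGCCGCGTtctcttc
The longer sequence had 85.5 CPM in HPC0h, 44.9 in tGCI26h and 7.48 in IgG and was not listed in Sham, a ratio of 1.902 (0.976 to 4.14). rno_piR_000699 has values only in the authors' deposited normalized table, 2 in HPC0h and 2 in tGCI26h.

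On the lower side, the largest difference among sequences listed in both libraries was that of novel_18422_x113, with 4.82 CPM in HPC0h, 2337 in tGCI26h, 232 in Sham and 11.96 in IgG, a ratio of 0.00206 (0.000559 to 0.00531). Of the same kind, novel_7583_x251 had 79.5 CPM in HPC0h, 3497 in tGCI26h, 1143 in Sham and 80.7 in IgG, a ratio of 0.0227 (0.0174 to 0.0292). In both, tGCI26h was the highest library, Sham next, and HPC0h at or below IgG. The letters TAGCTCAG, part of the D arm of several tRNAs, occur on the listed strand of 29 of 2036 measured sequences (1.42%), and 21 of the 29 lay in families with no RNA name. The 27 listed unnamed sequences with the letters had a summed ratio of 0.125 (0.116 to 0.135), with 14 of 21 measured (66.7%) called lower and 0 higher. That sum leaned on the sequences just named, and the median log2 ratio of the 21 was -1.57. Of the 2113 tags in tGCI26h, novel_7583_x251 held 778 and novel_18422_x113 held 520, against 66 and 4 of 985 in HPC0h. The 298 listed unnamed sequences without the letters had a summed ratio of 1.20 (1.15 to 1.25) and a median log2 ratio of -0.054. Of the 98 measured among them 27 (27.6%) were called higher and 27 (27.6%) lower, against 21.0% in each direction over all sequences.

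Short fragments were lower in HPC0h. The calls by length are to be read beside the 21.0% called in each direction over all sequences. Sequences of 21 to 28 nt held 0.273% of tags in HPC0h, 1.18% in tGCI26h, 0.683% in Sham and 3.27% in IgG, and 32 of 47 were called lower and 0 higher. Those of 29 to 32 nt, nearest to the selected insert length, held 1.55% of tags in HPC0h, 3.26% in tGCI26h, 5.15% in Sham and 1.73% in IgG, with 17 of 113 higher and 43 lower. Single sequences weighed heavily in these shares. At 21 to 28 nt let-7b held 19772 of 21886 tags in IgG. In tGCI26h novel_7583_x251 held 778 and let-7b 551 of 2634 tags of that length. At 29 to 32 nt rno_piR_005567 held 5888 of 8203 tags in Sham. Between 33 and 36 nt the calls turned, with 187 of 675 higher and 80 lower, although the tag share was 17.9% in HPC0h and 22.5% in tGCI26h. At 39 nt, the longest length listed, 56 of 457 were higher and 145 lower, while the tag share was 49.7% in HPC0h and 48.1% in tGCI26h. Counts of sequences and shares of tags thus went in opposite directions for these last 2 length classes.

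**Figure D5:**
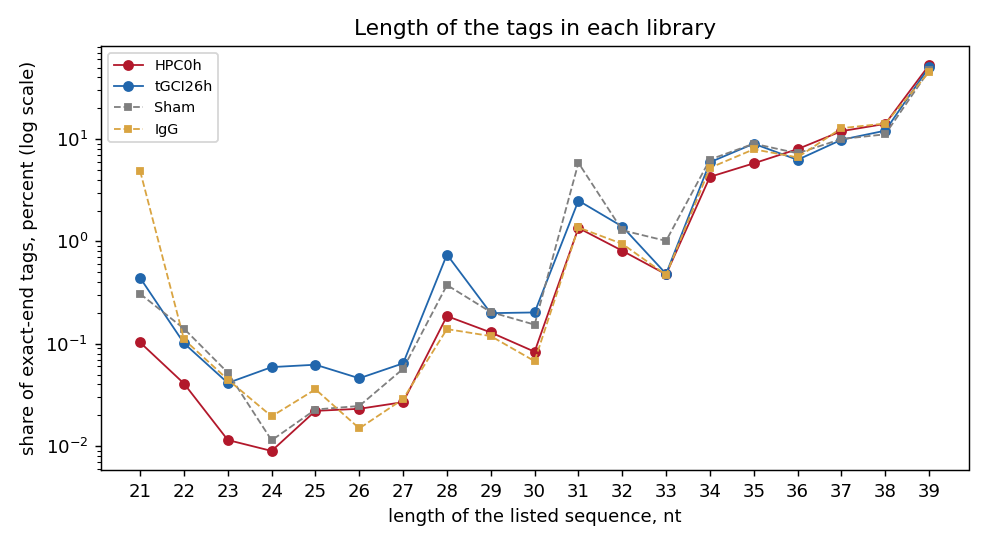
Share of exact-end tags by length of the listed sequence (log scale), with 1 line per library. The 39 nt point is 52.7% in HPC0h and 50.5% in tGCI26h, and at 28 nt the values are 0.186% and 0.743%.

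piRNAs are known for a U (T in these files) as first base and, in the partner made by the ping-pong cycle, an A at base 10. A first T was found in 15.9% of tags in HPC0h, 27.2% in tGCI26h, 29.2% in Sham and 23.9% in IgG. An A at base 10 was found in 47.6% in HPC0h, 35.3% in tGCI26h, 35.8% in Sham and 46.8% in IgG. Without the 28S 5′ end family, whose leading sequence starts with C and has A at base 10, a first T was found in 33.6% in HPC0h, 39.7% in tGCI26h, 43.6% in Sham and 40.6% in IgG, and an A at base 10 in 15.4%, 13.9%, 11.6% and 19.4% in the same order.

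Ratios over Sham and IgG share the HPC0h or the tGCI26h library with the comparison, so the values are given side by side as a description. Over all 2036 sequences, HPC0h was at least 2-fold above IgG with an interval above 1 in 385 (18.9%) and below it in 251 (12.3%). For tGCI26h the counts were 357 (17.5%) above IgG and 300 (14.7%) below. Against Sham, HPC0h was above in 514 (25.2%) and below in 316 (15.5%).

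Of the 428 sequences higher in HPC0h than in tGCI26h, HPC0h was above IgG in 188 and tGCI26h below IgG in 180. HPC0h was above Sham in 224 of them. Their median level was 92.7 CPM in HPC0h, 20.2 in tGCI26h, 31.4 in Sham and 56.8 in IgG. Of the 428 lower sequences, tGCI26h was above IgG in 237 and HPC0h below IgG in 124. In the same set HPC0h was below Sham in 183. Their median level was 48.2 CPM in HPC0h, 189 in tGCI26h, 94.2 in Sham and 79.2 in IgG. In both sets the medians of Sham and IgG lay between those of the 2 libraries. The sets were chosen by the difference between HPC0h and tGCI26h, so that position and these counts follow in part from the choice.

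At the thresholds, the sequences with a highest count of exactly 10 numbered 44 and those of exactly 9 numbered 55. Just inside was novel_15740_x129 with 9 tags in HPC0h and 10 in tGCI26h, and just outside novel_8009_x239 with 9 in each. The smallest called folds were the ratios 2.01 of novel_6_x180866 and 0.497 of novel_14742_x137, and the nearest uncalled ones 1.99 of novel_1447_x1180 and 0.50004 of novel_9172_x210.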

How the data were processed

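Small RNA from 4 immunoprecipitates was sequenced, per the labels' protocols on an Illumina HiSeq after adaptor ligation, PCR and selection for inserts near piRNA length, with no molecular identifiers named. Cutadapt 1.9.3 and Novoalign 3.02.12 are listed in the submitters' processing notes without a role, and a genome build was not used here. The first deposited table, raw per the file headers, gives tag counts for each sequence, with 2 as the lowest count in each library, and blanks were taken as 0. The second deposited table holds normalized values, treated as a score because the authors' scaling is not given. For this work some lines had been emptied. No genome was used.

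Ratios of CPM carry exact Clopper-Pearson 95% intervals from counts, with library totals as given in the text: 830634 and 222511 tags for the main comparison, 159215 for Sham, and 480438 and 152422 exact-end tags. Python 3.11.15, numpy 2.4.6, pandas 2.3.3, scipy 1.17.1, matplotlib 3.10.9, R 4.3.3 and edgeR 4.0.16 (TMM factors only) were used, and the steps were tested on simulated data. Log2 ratios use a pseudocount of 0.5. Named sequences are the 10 with the highest lower bound and the 10 with the lowest upper bound, the 10 most abundant of each library, leading members of RNA names and of families with at least 10 measured sequences with their highest and lowest ratios, every measured rno_piR name and those at the thresholds; others printed (such as novel_3847_x482, novel_1825_x970, novel_2114_x852, novel_231_x5358, novel_9520_x202, novel_4906_x381 and novel_12146_x162) were chosen after their values were seen. The members and lists were chosen with earlier results of these data known. Alternatives covered scaling, the minimum, the fold, blanks, pseudocount, the normalized table, family sums and, added after seeing the data, exact-end tags and sequences contained in no other.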

Additional observations from a re-analysis of the deposited data

Results flagged for a closer look

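Beyond the raw table, 762 further sequences have values in the authors' deposited normalized table only. In HPC0h 0 of these, and in tGCI26h 12 of these, reached a value of 10 and lay 2-fold or more over IgG. They appear outside the counts used for the comparison, and HPC0h holds a value for 547 of the 762 and tGCI26h for 266.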

How the results depend on the processing

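The 428 higher and 428 lower calls became 695 and 267 when the 28S 5′ end family was left out of the totals (72.3% of calls higher), 282 and 221 with a minimum of 50 tags, 133 and 374 with 10 tags in both libraries (26.2% higher), 266 and 164 at 4-fold (61.9% higher), 21 and 76 over family sums (21.7% higher), and 153 and 239 over sequences contained in no other (39.03% higher). Other settings gave 475 and 385 (TMM), 435 and 424 (median of ratios), 428 and 511 (no minimum), 384 and 428 (blank as 1), 528 and 602 (no fold), 511 and 437 (normalized table) and 404 and 370 (exact-end tags). The 28S sum of 1.35 was 1.46 by TMM, 1.38 by median of ratios, 1.97 without the 5′ end family in the totals, 1.29 without the most abundant sequence and 1.34 on exact-end tags. The 18S sum of 0.720 was 0.777 by TMM, 0.733 by median of ratios, 0.728 in the normalized table, 0.755 on exact-end tags, 0.743 over sequences contained in no other, and turned to 1.05 without the 5′ end family. The tRNA sum of 0.442 was 0.477, 0.450, 0.643, 0.451, 0.462, 0.4997 and 0.468 by TMM, median of ratios, totals without the 5′ end family, the normalized table, without the most abundant sequence, exact-end tags and sequences contained in no other. Without the 5′ end family the sums also turned to 1.24 for U2, 1.05 for unnamed sequences and 1.27 for 28S outside that family; without the most abundant sequence they turned to 1.06 for U2 and 1.17 for U4. Median log2 ratios turned to -0.11 for 28S and -0.24 outside its 5′ end family with a pseudocount of 5, and to -0.14 and -0.47 with 10 tags in both libraries. For novel_7128_x266 exact-end tags give a log2 ratio of -1.66, but it has 0 exact-end tags in both libraries, so that value comes from the pseudocount and the totals and shows no reversal. The cause of these changes was not tested, beyond the settings' own construction. Of the values for named sequences over all settings, 1229 kept call and direction, 65 were newly called and 97 lost the call. No paired analysis was possible because each group has 1 library. Depth limits what can be seen: the HPC0h column holds 830634 tags and the tGCI26h column 222511.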
